A study of Mus musculus with 54 samples.

Results

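Solute carriers are the membrane proteins that move sugars, amino acids, metals, nucleosides, vitamins and ions across the plasma membrane and across the membranes of lysosomes, the Golgi apparatus and mitochondria. Their expression was followed in bone marrow-derived macrophages (BMDMs) from N4bp1 knockout (KO) and wild-type (WT) mice given ligands of Toll-like receptors. Of 371 protein-coding genes with an Slc symbol, 158 are described. They were taken by name and by a summed count of at least 5400 over all 54 libraries, after 7 genes (Slc2a1, Slc16a1, Slc16a3, Slc7a2, Slc7a11, Slc3a2 and Slc7a5) had been left out by name. The other 206 lay under that minimum, 47 of them with no count. Just inside the minimum were Slc1a4 with 5613 counts, Slc22a15 with 5903 and Slc35e3 with 6712, and just outside it were Slc18a1 with 4964, Slc25a43 with 4702 and Slc17a9 with 4525. All 158 passed the filter on low counts. Among them, 3 carry an Slc symbol without being carriers, namely Slc4a1ap, Slc7a6os and the scaffold protein Slc9a3r1 (NHERF1).

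BMDMs of both genotypes were given Pam3 (Pam3CSK4, a synthetic lipopeptide that activates TLR2 with TLR1) or R837 (imiquimod, a small molecule that activates TLR7) for 2, 4, 6 or 8 h, or were left untreated. That gave KO Pam3, KO R837, KO untreated, WT Pam3, WT R837 and WT untreated cells, 18 groups of 3 libraries, and the labels count each replicate as BMDMs of a separate mouse. Marrow of C57BL/6N mice was grown with M-CSF, the growth factor of macrophages, and the control mice carried no allele that the labels name. N4BP1 is an RNA-binding protein known as a restraint on NF-kB signalling, and the labels do not say how its gene was disrupted.

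Macrophages withhold metals from microbes and recycle iron from red cells, so iron importers and the exporter ferroportin (Slc40a1) are part of their known work. The lysosomal carriers clear the breakdown products of what the cell has eaten, and Slc15a4, a histidine and peptide carrier of endolysosomes, is known to be needed for signalling through TLR7. The SLC25 family fills the inner mitochondrial membrane, SLC30 proteins move zinc out of the cytosol and SLC39 proteins move it in, and SLC35 proteins carry nucleotide sugars into the Golgi apparatus.

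Library totals lay between 20033154 and 45892308 counts, and the 158 genes took 1.27% to 1.64% of them. N4bp1 reads remained in KO libraries, but every KO library lay below every WT library of its condition. The summed level of Y-linked genes was 0.071 to 1.71 CPM over the KO libraries, against 0.378 to 205 CPM over the WT libraries. Igha, an immunoglobulin gene of plasma cells, lay at 25.2 to 89.9 CPM in KO cells, against 0.329 to 15.02 CPM in WT cells. Every WT condition held 1 library at 161 to 205 CPM of Y-linked genes, 1 at 56.2 to 69.8 CPM and 1 at 0.378 to 1.596 CPM. Igha was lowest in the first of these and highest in the last. They were replicates 1, 2 and 3 in that order in untreated and R837 cells but not under Pam3, so WT libraries may share 3 sources that the numbers do not follow. The ligand comparisons take no account of a shared source. Macrophage markers were high throughout (10 genes summing to 18932 to 28610.0 CPM in KO and 21027 to 32074 CPM in WT libraries), while 10 markers of B and plasma cells summed to 106 to 233 CPM in KO and 19.3 to 130.1 CPM in WT libraries. At 8 h 4 of 10 macrophage markers were lower in KO cells under R837, and 5 were lower and 1 higher under Pam3. Of 9 neutrophil markers tested 3 were lower in KO cells under R837 and 3 were lower and 1 higher under Pam3. The median of their summed level was 55.6 CPM over KO libraries, against 97.2 CPM over WT. Of 10 stromal and endothelial markers 4 and 3 were lower in KO cells at 8 h of R837 and Pam3. Their medians were 30.1 CPM over KO libraries, against 46.6 CPM over WT. The T-cell markers Cd3e, Cd3d and Cd3g lay at or near 0 CPM in every library. The part of these differences in the genotype results was not tested, and in bulk RNA fewer cells of a type and less RNA per cell cannot be told apart. The library KO Pam3 8 h replicate 3 had reads on 12263 genes, the lowest number, and KO Pam3 6 h replicate 3 came next with 16097. The totals of members called between genotypes at those times are therefore also given without them. Levels and differences of single genes at those times include these libraries.

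In untreated WT cells the carriers differed widely in level, which is given here as CPM (counts scaled to the size of the library) per kilobase of exon. The median over the 158 genes was 10.3, the lowest was 0.369, and the 12 highest genes held 42.8% of the summed level. Slc6a6, the taurine and beta-alanine importer, led with 327 ± 51.3 in KO and 375 ± 21.2 in WT cells (SD, n = 3 each). Well below it came the mitochondrial phosphate carrier Slc25a3 with 132 ± 12.1 in KO and 129.5 ± 1.64 in WT cells. Slc15a3, a lysosomal histidine and peptide carrier, had 84.6 ± 8.06 in KO and 128 ± 7.26 in WT cells, and Slc37a2, a sugar-phosphate carrier, had 136 ± 7.19 in KO and 127 ± 1.52 in WT cells. In WT cells these 3 neighbours did not differ beyond their spread. The amino acid carrier Slc43a2 (101 ± 2.33), the fatty acid carrier Slc27a1 (101 ± 2.50), the haem carrier Slc48a1 (98.3 ± 2.58), the creatine importer Slc6a8 (95.9 ± 4.95) and the mitochondrial glutathione carrier Slc25a39 (90.4 ± 1.40) came next in untreated WT cells. The list of the 12 highest ended with Slc38a2, Slc9a3r1 and Slc25a4. Part of the reads of Slc15a3 may belong to Tmem132a, which shares exon bases on the opposite strand, because the sources used here do not say whether counting used strand.

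Both ligands changed most solute carriers in WT cells, in both directions. At 8 h Slc13a3, Slc28a2, Slc39a14 and Slc2a6 held the 4 steepest rises under both ligands, and Slc46a3, Slc5a3 and Slc26a11 the 3 steepest falls. After R837, members that rose numbered 50, 45, 51 and 54 of 158 at 2, 4, 6 and 8 h, where 22.2%, 26.4%, 28.9% and 28.3% of all 14970 genes tested rose (edgeR quasi-likelihood test, Benjamini-Hochberg adjusted p under 0.05). Those that fell after R837 numbered 56, 72, 78 and 68, where 19.7%, 27.4%, 30.3% and 29.1% of all genes fell. After Pam3, 50, 48, 53 and 57 members rose at the 4 times, where 22.1%, 25.3%, 26.8% and 26.3% of all genes rose. Those that fell after Pam3 numbered 49, 54, 61 and 58, where 18.9%, 23.7%, 26.7% and 25.9% of all genes fell. The members had to be well expressed by their rule, and of the 9375 protein-coding genes with as many counts 35.9% rose and 34.1% fell at 8 h of R837 and 33.8% rose and 30.9% fell at 8 h of Pam3. Set beside that, 34.2% of members rose and 43.04% fell at 8 h of R837, and 36.1% rose and 36.7% fell at 8 h of Pam3. The median member stood at -0.15 on the log2 scale at 8 h of R837 and -0.06 at 8 h of Pam3, against -0.06 and -0.03 over all genes. All 8 comparisons use the same untreated libraries.

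The sodium-coupled dicarboxylate importer Slc13a3, which carries succinate and related acids, rose most at 8 h. Its WT libraries held 231, 150.2 and 104 CPM at 8 h of R837, against 2.42, 3.70 and 4.21 CPM untreated, a log2 change of 5.55 ± 0.24 (± SE, as for all changes and differences, adjusted p = 5.77e-23). At 8 h of Pam3 they held 121, 167 and 125 CPM, a change of 5.32 ± 0.24 (adjusted p = 2.41e-22). The rise was gradual, with means of 15.5 ± 1.03, 25.03 ± 1.28 and 60.7 ± 6.07 CPM at 2, 4 and 6 h of R837. Slc28a2, the concentrative importer of purine nucleosides, held 420.4, 626 and 840.5 CPM at 8 h of R837 and 211, 179 and 163 CPM at 8 h of Pam3, against 11.9, 13.6 and 16.9 CPM untreated. Treated and untreated libraries of both genes were far apart, with changes for Slc28a2 of 5.47 ± 0.23 under R837 and 3.70 ± 0.21 under Pam3 (adjusted p = 6.65e-24 and adjusted p = 4.33e-19).

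**Figure D1:**
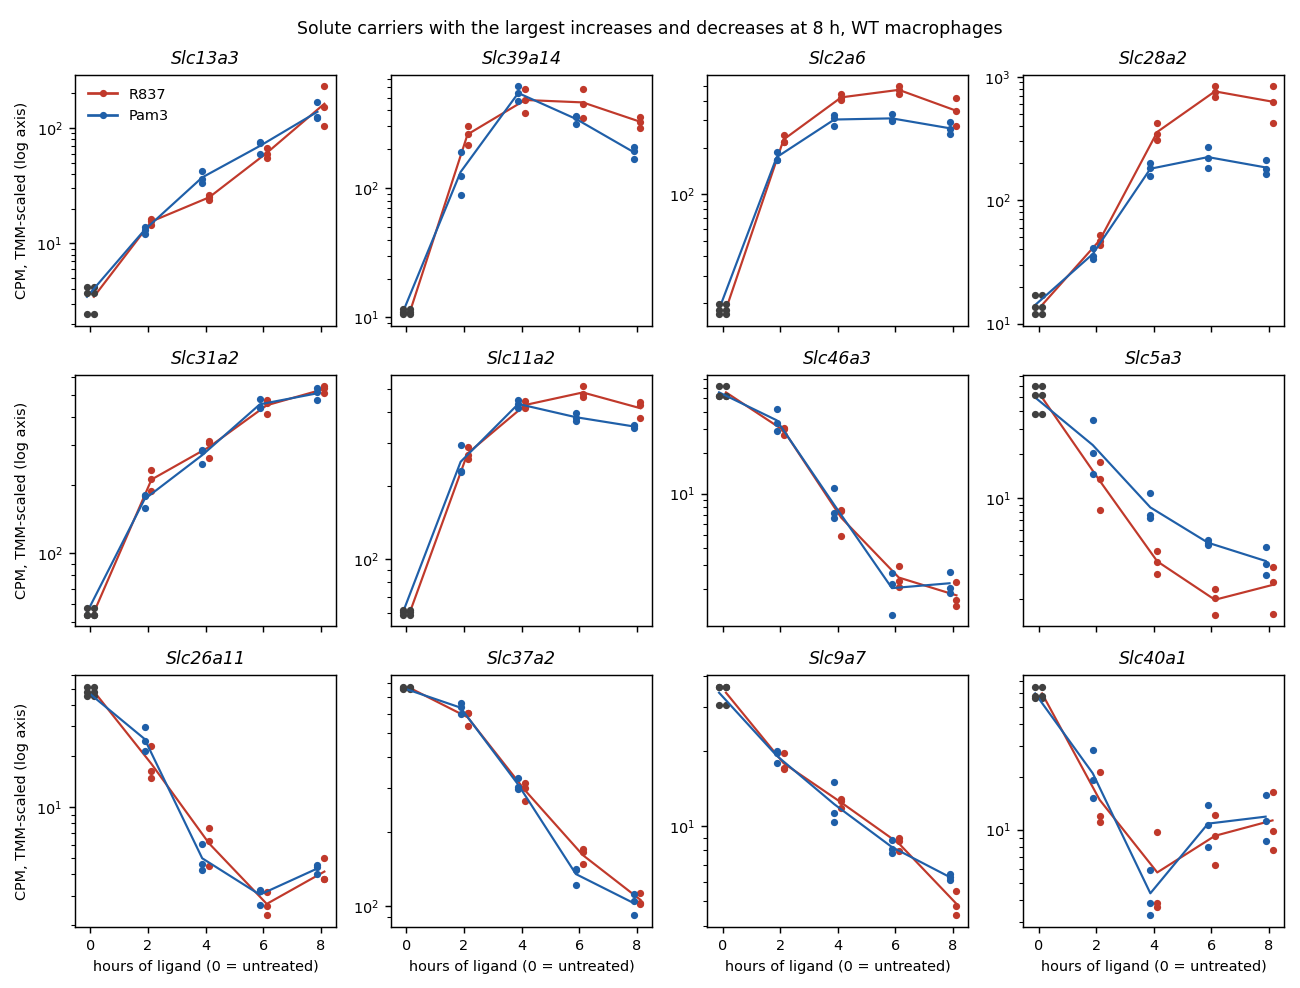
Levels of 12 solute carriers in WT macrophages, as TMM-scaled CPM on a log axis, against hours of ligand (0 is untreated). Points are libraries (3 a group), lines join group means, red is R837, blue is Pam3 and grey is untreated. The first 6 panels (Slc13a3 to Slc11a2) lie above and the last 6 (Slc46a3 to Slc40a1) below their untreated libraries at 8 h of both ligands, and Slc28a2 is higher under R837 than under Pam3 from 4 h on.

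At 2 h 5 of the 9 carriers of iron, copper, magnesium and haem rose and 2 fell under each ligand. Of 17 zinc carriers 7 rose and 4 fell under R837 and 6 rose and 4 fell under Pam3. At that time 28.9% of protein-coding genes with as many counts rose and 25.7% fell under R837. Under Pam3 28.5% rose and 25.2% fell. Slc39a14 (ZIP14), an importer of zinc and of iron that is not bound to transferrin, held 303, 259.8 and 217 CPM at 2 h of R837 and 123, 189 and 87.8 CPM at 2 h of Pam3, against 10.9, 11.6 and 10.6 CPM untreated. That was a change of 4.56 ± 0.27 under R837 and 3.59 ± 0.26 under Pam3 (adjusted p = 3.69e-18 and adjusted p = 2.31e-15), with no overlap between treated and untreated libraries. Its mean was highest at 4 h under both ligands, at 479.6 ± 99.3 CPM under R837 and 543 ± 71.97 CPM under Pam3. Slc11a2 (DMT1), which moves ferrous iron across endosomal and plasma membranes, held 379, 429 and 439.7 CPM at 8 h of R837 and 352, 344 and 354 CPM at 8 h of Pam3, against 58.9, 60.8 and 61.6 CPM untreated. At 2 h it rose by 2.17 ± 0.08 under R837 and 2.05 ± 0.08 under Pam3 (adjusted p = 6.62e-27 and adjusted p = 4.62e-26), and at 8 h by 2.78 ± 0.08 under R837 and 2.54 ± 0.08 under Pam3 (adjusted p = 8.20e-31 and adjusted p = 2.54e-29). The copper carriers Slc31a1 (CTR1), the importer at the plasma membrane, and Slc31a2 (CTR2), found in endolysosomes, rose as well. At 8 h of R837 Slc31a1 changed by 2.69 ± 0.10 and Slc31a2 by 3.28 ± 0.10, and at 8 h of Pam3 by 2.38 ± 0.10 and 3.21 ± 0.10 (largest of these 4 values, for Slc31a1 under Pam3, adjusted p = 1.51e-24). Slc11a1 (NRAMP1), which pumps iron and manganese out of the phagosome, changed by 1.67 ± 0.10 under R837 and 1.67 ± 0.10 under Pam3 (adjusted p = 1.52e-18 and adjusted p = 2.36e-18). The haem carrier Slc48a1 changed by 0.79 ± 0.09 under R837 and 0.94 ± 0.09 under Pam3 (adjusted p = 6.20e-10 and adjusted p = 7.39e-12).

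The iron exporter ferroportin, Slc40a1, went the other way. Its libraries held 3.64, 3.84 and 9.63 CPM at 4 h of R837 and 5.92, 3.26 and 3.85 CPM at 4 h of Pam3, against 57.8, 55.8 and 65.1 CPM untreated. The groups did not overlap, and the change was -3.37 ± 0.35 under R837 and -3.78 ± 0.36 under Pam3 (adjusted p = 4.93e-11 and adjusted p = 6.00e-12). At 8 h the means were higher again than at 4 h, 11.3 ± 4.58 CPM under R837 and 11.9 ± 3.66 CPM under Pam3, and the changes from untreated cells were -2.39 under R837 and -2.33 under Pam3. In all, 6 of the 9 carriers of iron, copper, magnesium and haem rose and 2 fell at 8 h of R837, and 6 rose and 3 fell at 8 h of Pam3. Among protein-coding genes with as many counts 35.9% rose and 34.1% fell at 8 h of R837. At 8 h of Pam3 33.8% rose and 30.9% fell. Of 14 tested partner genes of metal handling, at 8 h 7 rose and 5 fell under R837 and 7 rose and 2 fell under Pam3. The ferritin heavy chain gene Fth1 was among those that rose, by 1.29 ± 0.10 under R837 and 1.19 ± 0.10 under Pam3 (adjusted p = 3.83e-15 and adjusted p = 5.72e-14). The ferritin light chain gene Ftl1 and the transferrin receptor gene Tfrc were among those that fell under R837. Their changes were -0.34 ± 0.15 and -0.61 ± 0.13 (adjusted p = 0.0458 and adjusted p = 1.02e-04). Under Pam3 they were -0.19 ± 0.15 and -0.21 ± 0.13 (adjusted p = 0.294 and adjusted p = 0.187).

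Of 17 zinc carriers, 8 rose and 6 fell at 8 h of R837 and 8 rose and 5 fell at 8 h of Pam3. Protein-coding genes with as many counts rose in 35.9% and fell in 34.1% of cases under R837. Under Pam3 33.8% rose and 30.9% fell. Beside Slc39a14, the plasma membrane importer Slc39a1 changed by 0.95 ± 0.08 under R837 and 0.87 ± 0.08 under Pam3, and Slc30a6, which loads zinc into the Golgi apparatus, by 1.32 ± 0.10 under R837 and 1.45 ± 0.10 under Pam3 (largest of these 4 values, adjusted p = 4.09e-13). Slc30a1 (ZnT1), the exporter of zinc at the plasma membrane, held 18.6, 15.99 and 19.8 CPM at 2 h of R837 and 30.1, 28.1 and 30.7 CPM at 2 h of Pam3, against 41.2, 41.7 and 42.9 CPM untreated. It fell by 2 h under both, with changes of -1.21 ± 0.14 under R837 and -0.50 ± 0.14 under Pam3 (adjusted p = 1.34e-09 and adjusted p = 0.00328), and its difference between R837 and Pam3 at that time was -0.71 ± 0.14 (adjusted p = 8.66e-04). Slc30a1 is a textbook target of the metal-sensing factor MTF1, and its promoter is shown for the letters TGCACNC or TGCGCNC of the metal response element, searched on both strands and in capitals. It lies at chr1:191906531-191906830 (GRCm38.p6, plus strand, from RefSeq, 250 bases before to 50 after the start).
Slc30a1 promoter: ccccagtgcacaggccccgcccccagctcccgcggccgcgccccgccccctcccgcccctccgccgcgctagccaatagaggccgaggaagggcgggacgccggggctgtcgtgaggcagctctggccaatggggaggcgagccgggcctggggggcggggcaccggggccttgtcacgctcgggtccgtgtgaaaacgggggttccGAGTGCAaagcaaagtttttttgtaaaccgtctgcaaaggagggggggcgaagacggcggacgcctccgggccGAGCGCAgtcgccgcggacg
It held 2 matches, both on the minus strand. At least 1 match stood in 36.5% of the 167 member promoters that RefSeq gave for 121 of the 158 members and in 25.7% of all 32851 promoters of that length. Those promoters were not limited to genes with as many counts as the members, here or for the motifs given further on. Whether such genes differ in this share was not tested. At 2 h Mtf1 itself differed from untreated cells by 0.42 ± 0.12 under R837, where it passed, and 0.06 ± 0.12 under Pam3 (adjusted p = 0.00281 and adjusted p = 0.712). The metallothionein gene Mt1, also a known MTF1 target, rose at 2 h by 1.57 ± 0.23 under R837 and 1.75 ± 0.23 under Pam3, and Mt2 by 4.68 ± 0.43 under R837 and 4.59 ± 0.43 under Pam3 (largest adjusted p = 2.97e-07).

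At 8 h of R837 35.9% of protein-coding genes with as many counts as the members rose and 34.1% fell. At 8 h of Pam3 33.8% rose and 30.9% fell. Among 10 carriers of hexoses and polyols, 1 rose and 8 fell at 8 h of R837 and 1 rose and 7 fell at 8 h of Pam3. The one that rose was Slc2a6 (GLUT6), a lysosomal member of the glucose carrier family, which held 276, 343 and 418 CPM at 8 h of R837 and 292, 246 and 263 CPM at 8 h of Pam3, against 19.6, 18.02 and 16.9 CPM untreated. Its change was 4.25 ± 0.16 under R837 and 3.88 ± 0.16 under Pam3 (adjusted p = 1.94e-26 and adjusted p = 4.00e-25). Slc5a3, the sodium-coupled importer of myo-inositol, held 3.33, 2.61 and 1.56 CPM at 8 h of R837 and 2.91, 4.61 and 3.48 CPM at 8 h of Pam3, against 59.3, 51.8 and 37.9 CPM untreated. It fell without overlap, with changes of -4.30 ± 0.38 under R837 and -3.76 ± 0.36 under Pam3 (adjusted p = 5.12e-13 and adjusted p = 7.61e-12), though its exons share bases with Mrps6 on the same strand. Slc37a2, among the highest carriers in untreated cells, held 103, 113 and 102 CPM at 8 h of R837 and 105, 91.97 and 112 CPM at 8 h of Pam3, against 752, 770.4 and 760.3 CPM untreated. The glucose importer Slc2a3 (GLUT3) also fell, with changes of -1.48 ± 0.23 under R837 and -1.31 ± 0.22 under Pam3 (adjusted p = 2.85e-07 and adjusted p = 2.66e-06).

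In a list of 15 lysosomal and endosomal carriers, 3 rose and 9 fell at 8 h of R837 and 3 rose and 8 fell at 8 h of Pam3. The shares of protein-coding genes with as many counts were 35.9% and 34.1% under R837. Under Pam3 they were 33.8% and 30.9%. The list counts Slc37a2 among the falls and does not hold Slc2a6, Slc31a2 or Slc11a2, which have been placed in lysosomes or endosomes and rose under both ligands. Slc15a3 was the steepest riser of the list. Its libraries held 1879, 1858 and 1778 CPM at 8 h of R837 and 1549, 1495 and 1634 CPM at 8 h of Pam3, against 282, 303 and 316 CPM untreated, a change of 2.61 ± 0.10 under R837 and 2.38 ± 0.10 under Pam3 (adjusted p = 5.05e-26 and adjusted p = 1.51e-24). Its relative Slc15a4 fell at 2 h, with changes of -0.83 ± 0.09 under R837 and -0.66 ± 0.09 under Pam3 (adjusted p = 4.31e-10 and adjusted p = 1.12e-07), and its differences from untreated cells at 8 h were -0.06 ± 0.09 under R837 and -0.07 ± 0.09 under Pam3. Slc46a3, a lysosomal proton-coupled carrier, fell most of all members at 8 h. It held 1.65, 2.23 and 1.49 CPM at 8 h of R837 and 2.04, 2.67 and 1.86 CPM at 8 h of Pam3, against 61.3, 52.4 and 52.4 CPM untreated, with changes of -4.97 ± 0.32 under R837 and -4.67 ± 0.30 under Pam3 (adjusted p = 6.57e-18 and adjusted p = 2.16e-17). The anion carrier Slc26a11 fell, with changes of -3.53 ± 0.34 under R837 and -3.47 ± 0.34 under Pam3. Sialin, Slc17a5, which exports sialic acid from lysosomes, fell, with changes of -2.004 ± 0.12 under R837 and -1.74 ± 0.11 under Pam3, and the nucleoside exporter Slc29a3 (ENT3) had changes of -2.22 ± 0.20 under R837 and -2.19 ± 0.20 under Pam3. Of these 6 falls that of Slc26a11 under Pam3 had the largest value, adjusted p = 9.63e-12.

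**Figure D2:**
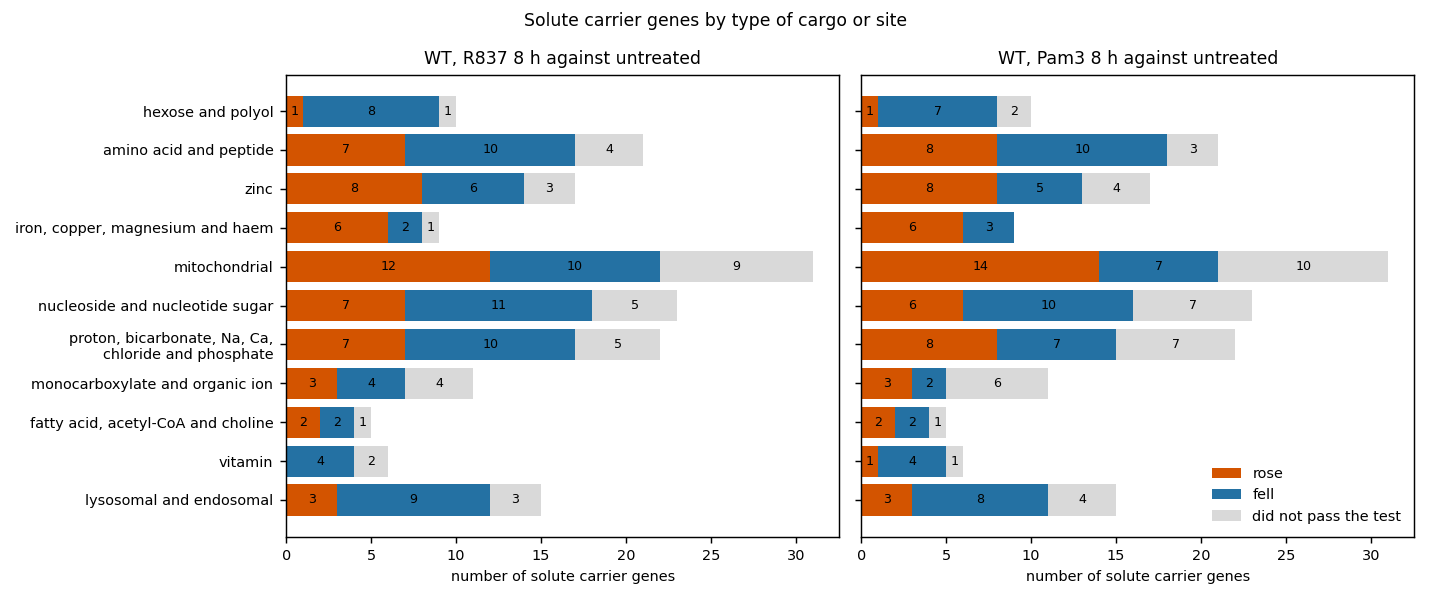
Number of solute carrier genes that rose, fell or did not pass the test in WT macrophages at 8 h of R837 (left) and Pam3 (right) against untreated cells, by type of cargo or by site. Numbers in the bars are genes, and lysosomal genes also stand in a cargo list. The mitochondrial bar counts all 31 SLC25 genes, with the peroxisomal Slc25a17. Of protein-coding genes with as many counts 35.9% rose and 34.1% fell under R837. Under Pam3 33.8% rose and 30.9% fell. Among hexose and polyol carriers 8 fell under R837 and 7 under Pam3, and among carriers of iron, copper, magnesium and haem 6 rose under each.

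Mitochondrial carriers went both ways. Of 31 SLC25 genes, among them the peroxisomal Slc25a17, 12 rose and 10 fell at 8 h of R837, and 14 rose and 7 fell at 8 h of Pam3. Among protein-coding genes with as many counts 35.9% rose and 34.1% fell under R837. Under Pam3 33.8% rose and 30.9% fell. Slc25a33, a carrier of pyrimidine nucleotides, changed by 2.19 ± 0.17 under R837 and 2.19 ± 0.17 under Pam3, and Slc25a37 (mitoferrin 1), the iron importer, by 1.505 ± 0.17 under R837 and 1.85 ± 0.17 under Pam3 (largest adjusted p = 1.42e-10). The citrate carrier Slc25a1 changed by 0.47 ± 0.09 under R837 and 0.39 ± 0.09 under Pam3 (adjusted p = 2.10e-05 and adjusted p = 3.54e-04). Slc25a13 (citrin), an aspartate and glutamate exchanger, fell, with changes of -1.76 ± 0.13 under R837 and -1.48 ± 0.13 under Pam3 (adjusted p = 6.26e-16 and adjusted p = 1.23e-13). The ATP-Mg and phosphate exchanger Slc25a25 changed by 1.64 ± 0.10 under R837 and 1.57 ± 0.10 under Pam3 (adjusted p = 3.04e-18 and adjusted p = 1.45e-17), and it shares exon bases with Naif1 on the opposite strand.

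In the amino acid and peptide list of 21 genes 7 rose and 10 fell at 8 h of R837, and 8 rose and 10 fell at 8 h of Pam3. Of protein-coding genes with as many counts 35.9% rose and 34.1% fell under R837. Under Pam3 33.8% rose and 30.9% fell. Slc7a7, the light chain of a cationic amino acid exporter, changed by 2.24 ± 0.15 under R837 and 1.97 ± 0.15 under Pam3, and the arginine importer Slc7a1 (CAT1) by 1.72 ± 0.18 under R837 and 1.94 ± 0.18 under Pam3 (largest adjusted p = 5.57e-11). Slc43a2 (LAT4) fell, with changes of -1.98 ± 0.14 under R837 and -1.56 ± 0.13 under Pam3, and Slc6a8 had changes of -1.77 ± 0.11 under R837 and -1.59 ± 0.11 under Pam3 (largest adjusted p = 9.36e-14). Slc7a7 shares exon bases with Oxa1l. Slc6a6, the highest carrier of untreated cells, held 1281, 1300.2 and 1156 CPM at 8 h of R837 and 933, 1106 and 1129.7 CPM at 8 h of Pam3, against 2401, 2393 and 2170.1 CPM untreated. Its changes were -0.90 ± 0.12 under R837 and -1.14 ± 0.12 under Pam3 (adjusted p = 2.89e-08 and adjusted p = 1.10e-10). The betaine and GABA importer Slc6a12 changed direction with time. Its WT means under Pam3 were 2.97 ± 0.520, 0.902 ± 0.506, 2.65 ± 0.744, 8.61 ± 2.09 and 9.18 ± 0.965 CPM at 0, 2, 4, 6 and 8 h, a change of -1.71 ± 0.36 at 2 h and 1.63 ± 0.30 at 8 h (adjusted p = 1.00e-04 and adjusted p = 1.14e-05). The monocarboxylate carrier Slc16a7 (MCT2) did the opposite, with changes of 1.05 ± 0.14 at 2 h and -1.61 ± 0.15 at 8 h of Pam3 (adjusted p = 3.58e-08 and adjusted p = 7.92e-13) and 0.85 ± 0.14 and -1.75 ± 0.15 at those times of R837 (adjusted p = 2.40e-06 and adjusted p = 8.30e-14).

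For the lists that follow, 35.9% of protein-coding genes with as many counts as the members rose and 34.1% fell at 8 h of R837. At 8 h of Pam3 33.8% rose and 30.9% fell. Of 23 nucleoside and nucleotide sugar carriers 7 rose and 11 fell at 8 h of R837 and 6 rose and 10 fell at 8 h of Pam3. Of 22 carriers of protons, bicarbonate, sodium, calcium, chloride and phosphate 7 rose and 10 fell under R837 and 8 rose and 7 fell under Pam3, with the sodium bicarbonate importer Slc4a7 at 2.31 ± 0.18 under R837 and 2.43 ± 0.18 under Pam3 (adjusted p = 6.69e-15 and adjusted p = 1.94e-15). Monocarboxylate and organic ion carriers numbered 11, of which 3 rose and 4 fell under R837 and 3 rose and 2 fell under Pam3. Of 6 vitamin carriers none rose and 4 fell under R837, and 1 rose and 4 fell under Pam3, with the folate importer Slc46a1 at -2.05 ± 0.25 under R837 and -1.90 ± 0.25 under Pam3 (adjusted p = 1.53e-09 and adjusted p = 7.65e-09). Of 5 carriers of fatty acids, acetyl-CoA and choline 2 rose and 2 fell under each ligand, and the choline carrier Slc44a1 stood at 2.00 ± 0.11 under R837 and 2.19 ± 0.11 under Pam3 (adjusted p = 4.37e-20 and adjusted p = 2.84e-21).

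R837 and Pam3 were compared with each other in WT cells. At 4 h of ligand the mitochondrial glutamate carrier Slc25a22 had the largest log2 difference in favour of R837 among the members. At 8 h Slc28a2 had the largest. Members higher under R837 numbered 1, 17, 19 and 12 at 2, 4, 6 and 8 h, where 2.56%, 10.4%, 12.2% and 7.16% of all genes tested were higher. Members lower under R837 numbered 8, 37, 46 and 16, where 2.22%, 11.5%, 10.5% and 4.37% of all genes were lower. At 4 h 23.4% of members were lower and at 6 h 29.1%, against 16.4% and 14.9% of the protein-coding genes with as many counts. The total of 28 at 8 h depended on single libraries, with 14 without WT R837 8 h replicate 3, 16 without WT R837 8 h replicate 2 and 17 without WT Pam3 8 h replicate 3.

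Slc25a22 held 195, 169 and 149 CPM at 4 h of R837, against 19.2, 19.6 and 22.1 CPM at 4 h of Pam3, and 21.6, 20.5 and 18.5 CPM in untreated cells. The R837 libraries stood apart from both other groups, with a difference of 3.07 ± 0.23 between the ligands at 4 h and 2.63 ± 0.23 at 6 h (adjusted p = 4.92e-14 and adjusted p = 3.81e-12). Under Pam3 it was 0.01 ± 0.22 from untreated cells at 4 h and 1.26 ± 0.22 at 8 h (adjusted p = 0.974 and adjusted p = 5.86e-06). Its promoter is shown because it is 1 of 2 member promoters, 1.2% of 167, that hold an interferon-stimulated response element, searched on either strand as 2 copies of GAAA with any 2 bases between them, against 3.44% of all promoters of that length. It is 1 of 3 starts that RefSeq lists for the gene, at chr7:141435326-141435625 on the minus strand of GRCm38.p6, with the match in capitals.
Slc25a22 promoter: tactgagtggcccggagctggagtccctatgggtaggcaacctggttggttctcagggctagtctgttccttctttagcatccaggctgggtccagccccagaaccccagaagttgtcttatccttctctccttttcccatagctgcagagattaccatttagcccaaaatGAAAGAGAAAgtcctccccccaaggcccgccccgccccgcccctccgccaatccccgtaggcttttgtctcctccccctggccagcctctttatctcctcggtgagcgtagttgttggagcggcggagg
The match begins 79 bases before the start and reads along the gene's own strand.

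Slc28a2 held a mean of 762 ± 76.2 CPM at 6 h of R837 and 224 ± 43.1 CPM at 6 h of Pam3, with libraries of 844, 693 and 751 CPM under R837 and 269, 183 and 219 CPM under Pam3. The ligands did not overlap, and the difference was 1.77 ± 0.19 at 6 h and 1.77 ± 0.19 at 8 h (adjusted p = 8.94e-10 and adjusted p = 5.98e-09). The aspartate and glutamate exchanger Slc25a12 (aralar) differed by 1.46 ± 0.13 at 4 h and 1.43 ± 0.12 at 6 h, and the neutral amino acid exchanger Slc7a8 (LAT2) by 0.84 ± 0.12 at 4 h (adjusted p = 5.94e-13, adjusted p = 1.70e-12 and adjusted p = 2.61e-07). Lower under R837 was the sodium-coupled phosphate importer Slc20a1 (PiT1), with 30.9, 34.1 and 36.9 CPM at 2 h of R837 and 92.5, 70.2 and 94.02 CPM at 2 h of Pam3. It differed by -1.33 ± 0.10 at 2 h and -0.95 ± 0.10 at 4 h (adjusted p = 4.26e-13 and adjusted p = 1.13e-10), and at 8 h by -0.11 ± 0.10 (adjusted p = 0.561). Slc35g1, a member of the SLC35 family, differed by -1.04 ± 0.19 at 4 h and -1.68 ± 0.18 at 6 h (adjusted p = 2.97e-05 and adjusted p = 7.07e-10). At 8 h the sodium, potassium and chloride importer Slc12a2 (NKCC1) differed by -0.75 ± 0.17 and the scaffold protein Slc9a3r1 by 1.12 ± 0.13 (adjusted p = 0.00127 and adjusted p = 2.13e-08).

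Before any ligand, few solute carriers differed between N4bp1 KO and WT cells. Of 158 members 5 were higher and 3 lower in KO cells, where 0.514% and 0.367% of all genes tested were higher and lower, and 28 members had an unadjusted p under 0.05. Without 1 library the total of 8 fell to between 2 and 5, with 5, 4 and 4 without KO untreated replicates 1, 2 and 3 and 2, 3 and 5 without WT untreated replicates 1, 2 and 3. The zinc importer Slc39a4 (ZIP4), at chr15:76612383-76617384 of GRCm38, was the largest difference and kept its call in all of these. It held 7.18, 9.92 and 10.99 CPM in KO cells, against 2.02, 2.43 and 2.56 CPM in WT cells, with no overlap and a difference of 2.00 ± 0.22 (adjusted p = 2.83e-08). Slc15a3 held 216, 178 and 202 CPM in KO cells, against 282, 303 and 316 CPM in WT cells, and was lower by the same test at -0.60 ± 0.10 (adjusted p = 1.51e-04). Slc13a3 had 6.58, 8.61 and 7.48 CPM in KO cells, against 2.42, 3.70 and 4.21 CPM in WT cells, a difference of 1.13 ± 0.23 (adjusted p = 0.00579, and adjusted p = 0.0688 to 0.111 without KO untreated replicate 2 or WT untreated replicate 1).

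The remaining 5 calls in untreated cells were lost in some fits without 1 library. Slc6a12 had 6.05, 3.72 and 10.1 CPM in KO cells, against 3.17, 3.36 and 2.38 CPM in WT cells, a difference of 1.15 ± 0.30 (adjusted p = 0.0469, and adjusted p = 0.0753 to 0.345 without KO untreated replicate 1 or 3 or WT untreated replicate 1, 2 or 3). Slc30a1 was lower, with 28.5, 28.3 and 29.5 CPM in KO cells, against 41.2, 41.7 and 42.9 CPM in WT cells, a difference of -0.54 ± 0.14 (adjusted p = 0.0435, and adjusted p = 0.0863 to 0.171 without KO untreated replicate 1, 2 or 3 or WT untreated replicate 1, 2 or 3). Slc9b2, a sodium and proton exchanger, differed by 0.86 ± 0.22 (adjusted p = 0.0393, and adjusted p = 0.13 to 0.298 without KO untreated replicate 1 or 2 or WT untreated replicate 1 or 2), Slc44a1 by 0.46 ± 0.11 (adjusted p = 0.0217, and adjusted p = 0.13 to 0.176 without KO untreated replicate 3 or WT untreated replicate 1 or 2) and Slc6a8 by -0.44 ± 0.10 (adjusted p = 0.0194, and adjusted p = 0.0516 to 0.254 without KO untreated replicate 2 or 3 or WT untreated replicate 1, 2 or 3). In the fits without 1 library that lost the call, the difference lay between 0.71 and 1.24 for Slc6a12, -0.57 and -0.52 for Slc30a1, 0.74 and 0.81 for Slc9b2, 0.36 and 0.43 for Slc44a1, and -0.47 and -0.37 for Slc6a8. Slc6a12 is 1 of 12 members, among 121 with promoters in RefSeq, that hold a kappa-B motif, the letters NF-kB proteins bind. Its promoter is shown as an example, and a part of the motif in the levels of Slc6a12 was not tested. The promoter is 1 of 5 starts in RefSeq, at chr6:121342324-121342623 on the plus strand of GRCm38.p6. It holds 1 match on the minus strand, in capitals, and the other starts held none.
Slc6a12 promoter: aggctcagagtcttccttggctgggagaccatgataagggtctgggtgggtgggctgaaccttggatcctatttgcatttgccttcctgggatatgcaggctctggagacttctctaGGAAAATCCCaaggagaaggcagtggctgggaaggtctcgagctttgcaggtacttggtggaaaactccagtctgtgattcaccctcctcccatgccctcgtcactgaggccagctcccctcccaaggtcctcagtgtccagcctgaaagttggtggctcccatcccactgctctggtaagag
The motif stood in 8.38% of member promoters and in 4.51% of all promoters of that length.

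Under Pam3 the genotypes drew apart with time. At 2, 4, 6 and 8 h of Pam3, 3, 7, 6 and 18 members were higher in KO cells, where 0.655%, 3.33%, 3.9% and 11.4% of all genes tested were higher. Lower in KO cells were 1, 14, 20 and 45 members, where 0.775%, 3.09%, 4.1% and 12.4% of all genes were lower. At 8 h 28.5% of members were lower in KO cells, against 15.6% of protein-coding genes with as many counts, and the median member stood at -0.09, against -0.05 over all genes. The total of 63 at 8 h was 50 without KO Pam3 8 h replicate 3, the library with few detected genes, and 12 when the 6 libraries of that time were fitted alone. Those 12 were Slc39a4, Slc39a14, Slc25a33, Slc6a12, Slc6a8, Slc7a8, Slc8b1, Slc12a7, Slc13a3, Slc17a5, Slc37a2 and Slc43a2. In that fit the adjusted p was 0.0637 for Slc29a3, 0.0969 for Slc30a6, 0.138 for Slc45a4, 0.25 for Slc15a4, 0.269 for Slc2a8 and 0.312 for Slc2a3. The total of 26 at 6 h was 12, 13 and 14 without KO Pam3 6 h replicate 3, WT Pam3 6 h replicate 2 and WT Pam3 6 h replicate 3, and 4 in a fit of those 6 libraries alone. The total of 21 at 4 h was 9 without KO Pam3 4 h replicate 1, and that of 4 at 2 h was 1, 2 and 1 without KO Pam3 2 h replicate 2, KO Pam3 2 h replicate 3 and WT Pam3 2 h replicate 2.

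Under R837, 3, 8, 19 and 20 members were higher in KO cells at 2, 4, 6 and 8 h, where 1.47%, 3.88%, 6.76% and 7.17% of all genes tested were higher. Lower in KO cells were 4, 13, 26 and 34 members, where 1.22%, 6.56%, 9.7% and 8.74% of all genes were lower. At 8 h 21.5% of members were lower in KO cells, against 13% of protein-coding genes with as many counts. The total of 7 at 2 h was 3 or 4 without any 1 of its 6 libraries, namely 3, 3 and 4 without KO R837 2 h replicates 1, 2 and 3 and 4, 4 and 3 without WT R837 2 h replicates 1, 2 and 3. Over all 9 conditions, whose WT libraries may share animals, 59 members were never called, and only Slc13a3 and Slc35g1 were called higher in some conditions and lower in others.

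**Figure D3:**
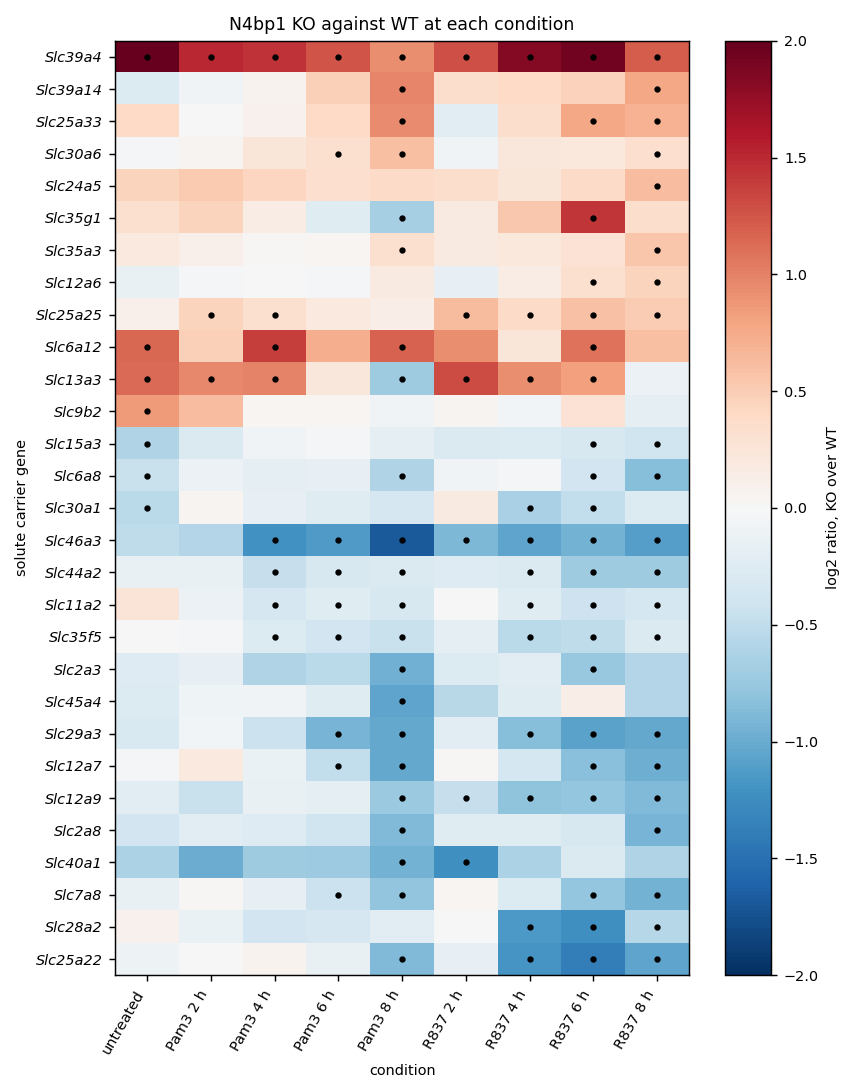
Log2 ratio of KO over WT for 29 solute carriers (rows) in untreated cells and at each time of Pam3 and R837 (columns), with red for higher in KO, blue for lower in KO and a dot where the adjusted p was under 0.05. Slc39a4 is dotted in all 9 columns, and Slc25a22 and Slc28a2 are lower at 4, 6 and 8 h of R837. Slc13a3 is dotted as higher in KO when untreated, at 2 and 4 h of Pam3 and at 2, 4 and 6 h of R837. At 8 h of Pam3 it is dotted as lower.

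Slc39a4 was the one member higher in KO cells at all 9 conditions. At 6 h of R837 it held 23.9, 24.6 and 18.7 CPM in KO cells, against 3.46, 8.32 and 5.70 CPM in WT cells, and at 6 h of Pam3 17.9, 21.7 and 22.2 CPM in KO cells, against 8.34, 9.71 and 7.87 CPM in WT cells. Its differences at 2, 4, 6 and 8 h were 1.51 ± 0.23, 1.44 ± 0.21, 1.26 ± 0.20 and 0.93 ± 0.20 under Pam3 and 1.30 ± 0.22, 1.84 ± 0.21, 1.94 ± 0.20 and 1.22 ± 0.20 under R837 (largest adjusted p = 4.65e-04, at 8 h of Pam3). Slc39a4 also rose in WT cells, by 1.79 ± 0.22 at 8 h of R837 and 2.23 ± 0.22 at 8 h of Pam3 (largest adjusted p = 1.18e-09). WT libraries at 8 h of Pam3 held 10.5, 10.7 and 11.8 CPM, near the range of untreated KO libraries. Slc39a14 differed late. It held 434, 278 and 412 CPM in KO cells at 8 h of Pam3, against 169, 208 and 193 CPM in WT cells, with no overlap and a difference of 0.98 ± 0.23 (adjusted p = 0.0014), and at 8 h of R837 it differed by 0.78 ± 0.23 (adjusted p = 0.013, and adjusted p = 0.0583 to 0.122 without KO R837 8 h replicate 1 or WT R837 8 h replicate 3).

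Slc25a33 was higher in KO cells at 8 h of both ligands. At 8 h of R837 it held 19.3, 18.1 and 16.9 CPM in KO cells, against 11.6, 11.2 and 10.5 CPM in WT cells, and at 8 h of Pam3 19.4, 23.4 and 21.4 CPM in KO cells, against 12.9, 10.1 and 10.3 CPM in WT cells. The genotypes did not overlap, and the differences were 0.70 ± 0.15 under R837 and 0.95 ± 0.15 under Pam3 (adjusted p = 8.18e-04 and adjusted p = 9.03e-06). The zinc carrier Slc30a6 was higher at 8 h of Pam3 by 0.60 ± 0.10 and the carrier of UDP-N-acetylglucosamine Slc35a3 at 8 h of R837 by 0.55 ± 0.11 (adjusted p = 9.23e-06 and adjusted p = 2.33e-04). Slc6a12 differed by 1.39 ± 0.31 at 4 h and 1.17 ± 0.29 at 8 h of Pam3 (adjusted p = 0.00284 and adjusted p = 0.00213). Of the 17 zinc carriers 5 were higher and 1 lower in KO cells at 8 h of R837, and 3 were higher and 4 lower at 8 h of Pam3. Of protein-coding genes with as many counts 10.2% were higher and 13% lower at 8 h of R837. At 8 h of Pam3 13.9% were higher and 15.6% lower. Of 14 tested partner genes of metal handling, 1 was higher and 3 were lower in KO cells at 8 h of Pam3. At 8 h of R837 1 was higher and 2 were lower. Higher at 8 h of Pam3 was the metal-binding protein gene Mt2. It held 46.9 ± 1.63 CPM in KO cells, against 20.3 ± 4.10 CPM in WT cells (SD, n = 3 each). Its difference was 1.21 ± 0.38 (adjusted p = 0.0182). At 8 h of R837 it was 0.87 ± 0.38 (adjusted p = 0.116). Mt1 differed by 0.43 ± 0.23 at 8 h of Pam3 (adjusted p = 0.161). Those lower at 8 h of Pam3 were Tfrc, Ncoa4 and Steap3. They differed by -0.86 ± 0.13, -0.80 ± 0.17 and -0.93 ± 0.12 (largest adjusted p = 4.23e-04).

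Of the 15 genes in the lysosomal and endosomal list, Slc37a2 included, none was higher and 9 were lower in KO cells at 8 h of R837, and none was higher and 7 were lower at 8 h of Pam3. Of protein-coding genes with as many counts 13% were lower at 8 h of R837 and 15.6% at 8 h of Pam3. The median log2 difference over the list was -0.21 in untreated cells, where 1 gene was lower. It was -0.43 at 8 h of R837 and -0.32 at 8 h of Pam3. Of the genes outside that list, Slc11a2 was lower at both, while Slc2a6 stood at -0.12 ± 0.14 under R837 and 0.31 ± 0.14 under Pam3. Slc31a2 stood at 0.03 ± 0.09 under R837 and -0.02 ± 0.09 under Pam3. Neither passed the threshold. Some macrophage, neutrophil and stromal markers were also lower at these times. Their part in these differences was not tested. The nucleoside exporter Slc29a3 held 13.5, 10.6 and 12.9 CPM in KO cells, against 24.7, 27.04 and 23.5 CPM in WT cells at 8 h of R837. At 8 h of Pam3 it held 16.3, 8.05 and 13.6 CPM in KO cells, against 22.7, 26.9 and 26.7 CPM in WT cells. Neither set overlapped, with differences of -1.02 ± 0.20 under R837 and -1.02 ± 0.20 under Pam3 (adjusted p = 2.52e-04 and adjusted p = 2.10e-04). Sialin, Slc17a5, differed by -0.59 ± 0.12 under R837 and -0.91 ± 0.12 under Pam3, and Slc37a2, also counted with the hexose carriers, by -0.63 ± 0.14 under R837 and -0.92 ± 0.14 under Pam3 (largest adjusted p = 8.27e-04). Slc15a4 differed by -0.48 ± 0.09 under R837 (adjusted p = 1.70e-04) and by -0.32 ± 0.09 under Pam3 (adjusted p = 0.00973, and adjusted p = 0.0631 without KO Pam3 8 h replicate 1). Slc46a3 held 3.42, 3.34 and 3.86 CPM in KO cells, against 10.9, 7.17 and 6.63 CPM in WT cells at 4 h of Pam3, a difference of -1.22 ± 0.28 (adjusted p = 0.00438, and adjusted p = 0.0526 without WT Pam3 4 h replicate 1). Slc29a3, Slc17a5, Slc37a2 and Slc46a3 are also among the members that fell with ligand in WT cells.

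Carriers of hexoses, when called, were lower in KO cells too, 3 of 10 at 8 h of R837 and 5 of 10 at 8 h of Pam3. Of protein-coding genes with as many counts 13% and 15.6% were lower at those times. Slc2a8 (GLUT8), an intracellular hexose carrier, held 2.14, 3.77 and 2.73 CPM in KO cells, against 4.70, 7.29 and 4.68 CPM in WT cells at 8 h of R837. It differed by -0.93 ± 0.21 there and by -0.88 ± 0.20 at 8 h of Pam3 (adjusted p = 9.59e-04 and adjusted p = 0.00101). Slc2a3 differed by -0.96 ± 0.24 and Slc45a4, a proton-coupled sugar carrier family member, by -1.06 ± 0.22 at 8 h of Pam3 (adjusted p = 0.0027 and adjusted p = 4.88e-04). Of 31 SLC25 genes, among them the peroxisomal Slc25a17, 7 were higher and 6 lower in KO cells at 8 h of R837. At 8 h of Pam3 9 were higher and 6 lower. Of protein-coding genes with as many counts 10.2% were higher at 8 h of R837 and 13.9% at 8 h of Pam3.

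Slc25a22 and Slc28a2, both higher under R837 than under Pam3 in WT cells, were lower in KO cells under R837. Slc25a22 held 67.4, 60.2 and 73.3 CPM in KO cells, against 183, 171 and 171 CPM in WT cells at 6 h of R837. The groups did not overlap, and the differences at 4, 6 and 8 h were -1.18 ± 0.22, -1.39 ± 0.22 and -1.05 ± 0.22 (adjusted p = 1.18e-04, adjusted p = 5.67e-06 and adjusted p = 4.83e-04). Slc28a2 held 369, 286 and 325 CPM in KO cells, against 844, 693 and 751 CPM in WT cells at 6 h of R837, again apart. It differed by -1.15 ± 0.19 at 4 h and -1.22 ± 0.19 at 6 h (adjusted p = 1.90e-05 and adjusted p = 3.81e-06). The same R837 libraries of WT cells enter the comparison of ligands and that of genotypes, and Slc25a22 had an adjusted p = 0.0769 at 4 h of R837 when those 6 libraries were fitted alone. At 6 h of Pam3 the differences were -0.14 ± 0.22 for Slc25a22 and -0.34 ± 0.19 for Slc28a2 (adjusted p = 0.757 and adjusted p = 0.281). At 8 h the log2 response of Slc25a22 in KO cells minus that in WT cells was -0.78 under Pam3 and -0.94 under R837. For Slc28a2 it was -0.29 under Pam3 and -0.65 under R837.

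**Figure D4:**
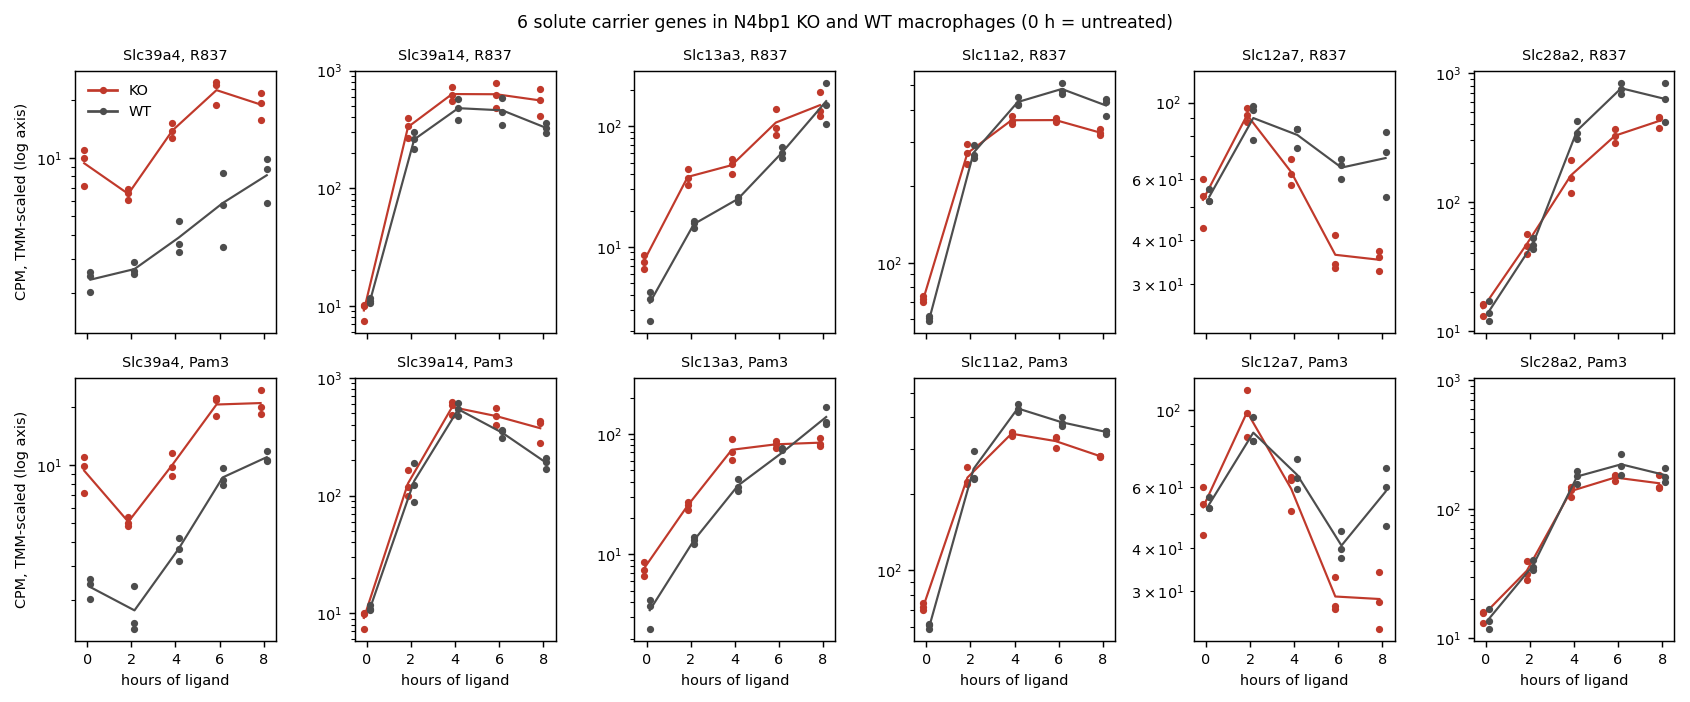
Levels of 6 solute carriers in KO (red) and WT (grey) macrophages, as TMM-scaled CPM on a log axis, against hours of R837 (top) or Pam3 (bottom), with untreated cells at 0 h. Points are libraries (3 a group) and lines join group means. KO libraries of Slc39a4 lie above WT throughout, KO libraries of Slc12a7 lie below WT at 6 and 8 h, and Slc28a2 is lower in KO at 4 and 6 h of R837.

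Whether the response itself differed between genotypes was tested over the 4 times of each ligand together. Under R837 35 members passed, where 7.47% of all genes tested did, and under Pam3 18 members passed, where 4.64% did. Among protein-coding genes with as many counts 11.6% passed under R837 and 6.72% under Pam3. The potassium and chloride exporter Slc12a7 (KCC4) was among the clearest under both. It held 35.8, 32.6 and 37.2 CPM in KO cells, against 82.3, 71.8 and 53.5 CPM in WT cells at 8 h of R837, and 27.9, 23.4 and 34.1 CPM in KO cells, against 46.4, 68.02 and 60.1 CPM in WT cells at 8 h of Pam3. No library overlapped at either time, while untreated cells held 53.6, 43.5 and 60.1 CPM in KO and 51.99, 52.2 and 56.2 CPM in WT cells. Its log2 response in KO minus that in WT was 0.06, -0.33, -0.81 and -0.95 at 2, 4, 6 and 8 h of R837 and 0.23, -0.10, -0.46 and -1.0003 at those times of Pam3 (adjusted p = 2.88e-04 and adjusted p = 2.51e-04, F-tests).

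Slc11a2 rose less in KO cells. It held 364, 359 and 370.1 CPM in KO cells, against 512, 475 and 462 CPM in WT cells at 6 h of R837, and its responses differed by -0.26, -0.49, -0.66 and -0.61 at 2, 4, 6 and 8 h of R837 (adjusted p = 5.08e-05). Under Pam3 the differences were -0.37, -0.58, -0.50 and -0.57 (adjusted p = 6.70e-04). Untreated cells held 12.6 ± 0.36 CPM per kilobase of Slc11a2 in KO and 10.5 ± 0.24 in WT. That difference, which did not pass the test, enters the value at every time. Slc13a3 started higher in KO cells and ended lower under Pam3. At 8 h of Pam3 it held 92.3, 79.3 and 81.8 CPM in KO cells, against 121, 167 and 125 CPM in WT cells, and the difference there was -0.71 ± 0.19 (adjusted p = 0.00653, and adjusted p = 0.0642 without WT Pam3 8 h replicate 2). Its responses differed by -0.17, -0.15, -0.90 and -1.84 over the 4 times of Pam3 (adjusted p = 3.42e-05). The neutral amino acid exchanger Slc7a8 held 297, 267 and 328 CPM in KO cells, against 595, 612 and 521 CPM in WT cells at 8 h of R837, and its responses differed by 0.19, -0.13, -0.63 and -0.81 (adjusted p = 5.94e-05). For Slc28a2 the differences were -0.09, -1.24, -1.31 and -0.65 under R837 (adjusted p = 4.01e-04). Slc20a1 went the other way, with responses larger in KO cells by 0.28, 0.23, 0.40 and 0.73 under Pam3 (adjusted p = 0.00528). It started lower in KO cells, at 7.18 ± 0.58 CPM per kilobase, against 9.07 ± 0.38 in WT. That untreated difference, which did not pass the test, enters the value at every time.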

How the data were processed

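RNA sequencing of 54 libraries from BMDMs gave 18 groups of 3, formed from the genotype, ligand and hours in the labels. Per the labels, RNA was purified on columns with DNase treatment, and TruSeq v2 libraries were read on a HiSeq4000. GSNAP and the build GRCm38 are named in the submitters' processing notes; the sources used here give no version, strand or counting setting. The authors deposited, per library, a table of 52636 Ensembl identifiers with an exon width, a whole-number read count and an RPKM value. The counts were tested. The deposited RPKM values, which scale reads to exon length and depth, were not used. GENCODE M21 gave symbols to 52489 identifiers and the coordinates.

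Genes were kept with edgeR's filterByExpr (minimum count 10, minimum total 15), which left 14970. A single model of the 18 groups was fitted in edgeR 4.0.16 (glmQLFit and glmQLFTest, robust, TMM factors 0.83 to 1.28, R 4.3.3), with Benjamini-Hochberg adjustment over all genes within each comparison at 0.05. An SE is the size of a log2 change divided by the root of F, and levels are TMM-scaled CPM as mean ± SD. The procedure was tested on simulated counts. Replicates of a group differed by more than sampling noise (chi-square per degree of freedom 7.001 to 93.8), so none was counted as a repeat. Library totals were 20033154 to 45892308 counts.

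The members, lists and tests were chosen with earlier results of these data known. Members may be named where they pass, where the higher group mean is at least 5 CPM and where all libraries of one group lie beyond all of the other. Of these the rule takes the 6 largest changes of each direction at 2 and 8 h of each ligand in WT, the 5 largest between genotypes and between ligands, and the 8 smallest interaction p values. It adds the 12 highest untreated levels, up to 4 members of each list and 9 chosen genes, and values at other times of those members are also given. Alternatives were RLE size factors, no filter, DESeq2 1.42.0, a replicate block, the 6 libraries compared alone and leaving out each library. Promoters come from RefSeq (GRCm38.p6). Protein sequences were not used here.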

Additional observations from a re-analysis of the deposited data

Results flagged for a closer look

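The responses of 14 named members differed between genotypes by the F-test of the interaction over the 4 times of a ligand, 8 under each ligand, with Slc11a2 and Slc12a7 under both. These are the 8 smallest p values of each ligand, and 4.64% of all genes tested passed under Pam3 and 7.47% under R837. The values are the log2 response in KO cells minus that in WT cells at 2, 4, 6 and 8 h. Untreated cells enter all 4 of them, so a difference before ligand shifts all 4.

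Under R837 the iron importer Slc11a2 had differences of -0.26, -0.49, -0.66 and -0.61 (adjusted p = 5.08e-05). For the amino acid exchanger Slc7a8 they were 0.19, -0.13, -0.63 and -0.81 (adjusted p = 5.94e-05). The potassium and chloride exporter Slc12a7 had 0.06, -0.33, -0.81 and -0.95 (adjusted p = 2.88e-04). The values for the creatine importer Slc6a8 were 0.38, 0.41, 0.07 and -0.41 (adjusted p = 3.59e-04). For the nucleoside importer Slc28a2 they were -0.09, -1.24, -1.31 and -0.65 (adjusted p = 4.01e-04). The amino acid carrier family member Slc38a6 had -0.10, 0.55, 0.59 and 0.32 (adjusted p = 6.67e-04). The values for the mitochondrial sodium and calcium exchanger Slc8b1 were 0.22, 0.18, -0.31 and -0.52 (adjusted p = 7.08e-04). For the zinc carrier Slc39a13 they were 0.14, 0.21, -0.04 and -0.60 (adjusted p = 0.00119). Reads of Slc39a13 may in part belong to Psmc3, which overlaps it.

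Under Pam3 the dicarboxylate importer Slc13a3 had differences of -0.17, -0.15, -0.90 and -1.84 (adjusted p = 3.42e-05). For the potassium and chloride exporter Slc12a7 they were 0.23, -0.10, -0.46 and -1.0003 (adjusted p = 2.51e-04). The iron importer Slc11a2 had -0.37, -0.58, -0.50 and -0.57 (adjusted p = 6.70e-04). The values for the sugar-phosphate carrier Slc37a2 were 0.06, -0.28, -0.35 and -1.02 (adjusted p = 0.00102). For the fatty acid carrier Slc27a4 they were 0.02, 0.08, 0.32 and 0.76 (adjusted p = 0.00178). Sialin, Slc17a5, had 0.13, -0.15, -0.15 and -0.70 (adjusted p = 0.00492). The values for the phosphate importer Slc20a1 were 0.28, 0.23, 0.40 and 0.73 (adjusted p = 0.00528). For the mitochondrial ATP-Mg carrier Slc25a24 they were 0.16, -0.26, -0.44 and -0.53 (adjusted p = 0.00673).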

How the results depend on the processing

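Counts of called members stayed within 1.5 times of the reported ones under RLE size factors for every comparison, and no named result changed sign under any alternative. With no filter on low counts 8 members were called in KO against WT at 2 h of Pam3, 11 at 2 h of R837, 14 for R837 against Pam3 at 2 h and 32 for the Pam3 interaction. DESeq2 called 28 for that interaction. Compared alone, 6 libraries gave 4 calls in KO against WT at 6 h of Pam3, 12 at 8 h of Pam3 and 12 at 2 h of R837. The cause was not tested. Leaving out 1 library gave 2 to 5 calls in KO against WT untreated, 1 to 3, 9 to 22, 12 to 27 and 50 to 71 at 2, 4, 6 and 8 h of Pam3, 3 to 4, 15 to 23, 32 to 41 and 36 to 46 at those times of R837, and 14 to 35 for R837 against Pam3 at 8 h. Among 873 called results of named members, 5 lost the call under DESeq2, 18 under RLE factors and 71 with no filter, and of 6294 fits without 1 library 672 did. With 6 libraries compared alone, a fit that does not cover the interactions, 90 of 829 such results lost the call.

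Deviations from the group means correlated above 0.1 in 34 of 108 same-numbered pairs against 18 of 216 other-numbered pairs in KO, and in 36 of 108 against 44 of 216 in WT. Most same-numbered pairs stayed below 0.1, but they passed it more often than other-numbered pairs, most of all in KO. Replicate numbers were not used to pair samples in the main fit. Whether they mark a shared source in KO was not tested. A replicate block gave 67 calls at 8 h of Pam3 and 55 at 8 h of R837 between genotypes. Between WT Pam3 and other WT libraries the numbers do not follow the level of Y-linked genes, so this block does not test a pairing by source, and none was fitted. Depth limits the members with the lowest counts most. The p-values rest on the spread between the 3 cultures of a group, pooled for each gene over all 18 groups. They do not measure the spread of the compared groups alone. Genotype cannot be told apart from the sex or source of the animals, which the labels do not give.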

Other observations

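Further members that passed the test moved in WT cells at 8 h. Slc9a7, a sodium and proton exchanger of the Golgi apparatus, held 4.77, 4.41 and 5.48 CPM at 8 h of R837 and 6.42, 6.09 and 6.27 CPM at 8 h of Pam3, against 36.01, 36.1 and 30.4 CPM untreated. No treated library reached the untreated ones, and it fell, with changes of -2.80 ± 0.24 under R837 and -2.45 ± 0.23 under Pam3 on the log2 scale (edgeR, adjusted p = 7.79e-14 and adjusted p = 2.38e-12). The lysosomal amino acid exporter Slc36a1 fell, with changes of -1.64 ± 0.18 under R837 and -1.47 ± 0.17 under Pam3. The vitamin importers Slc19a1, for reduced folate, and Slc19a2, for thiamine, fell, with changes of -1.16 ± 0.21 and -0.95 ± 0.19 under R837 and -0.75 ± 0.21 and -0.92 ± 0.19 under Pam3. Among the genes that rose were Slc12a4 (KCC1), an exporter of potassium and chloride, by 1.28 ± 0.12 under R837 and 1.32 ± 0.12 under Pam3, and the aromatic amino acid carrier Slc16a10 (TAT1), by 1.21 ± 0.11 under R837 and 1.59 ± 0.11 under Pam3. The largest of these 8 values was that of Slc19a1 under Pam3, adjusted p = 0.00208.

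Between genotypes, Slc44a2, a choline carrier family member, held 43.8, 47.97 and 50.3 CPM in KO cells, against 69.9, 79.3 and 83.02 CPM in WT cells at 8 h of R837. The groups did not overlap, and the difference was -0.71 ± 0.10 at 6 h and -0.71 ± 0.10 at 8 h (adjusted p = 2.48e-07 and adjusted p = 4.77e-07). Slc12a9, a member of the cation and chloride carrier family, was lower in KO cells at 4, 6 and 8 h of R837, with differences of -0.81 ± 0.13, -0.77 ± 0.13 and -0.88 ± 0.13 (largest adjusted p = 1.31e-05). The mitochondrial dicarboxylate carrier Slc25a10 was higher in KO cells at 4 and 6 h of R837, by 0.42 ± 0.10 and 0.60 ± 0.10 (adjusted p = 0.00313 and adjusted p = 1.31e-05). The peroxisomal member of the SLC25 family, Slc25a17, was higher at 8 h of R837 by 0.46 ± 0.08, and Slc25a45 was lower there, with a difference of -0.52 ± 0.12 (adjusted p = 3.02e-05 and adjusted p = 0.00127). Each of these genotype differences passed in every fit without 1 library.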
